A study of Caenorhabditis elegans with 12 samples.

Results

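Caenorhabditis elegans larvae of the first stage (L1) stop developing when they hatch into strong salt and also when they hatch without food. The comparison described here sets these conditions directly against each other: 3 libraries of larvae given food on 500 mM NaCl (fed high-salt) against 3 libraries of larvae kept without food on 100 mM NaCl (unfed low-salt). These 6 libraries were taken by their sample titles from 12 in the series. The other 6 are larvae with food on 100 mM NaCl (fed low-salt) and larvae without food on 500 mM NaCl (unfed high-salt), 3 libraries each. All animals were the wild-type strain N2, the food was the Escherichia coli strain OP50, and each group has 3 biological replicates lettered A to C. Embryos were plated at 5000 per 10 cm plate and whole larvae were collected after 24 h at 25 °C. The comparison asks which transcripts separate larvae held back by salt from larvae held back by hunger. Arrest itself was not measured in these data, so the groups are named by salt and food. Salt and food both differ between the groups compared, and neither can be credited from this comparison alone.

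Hypertonic medium draws water out of a worm, which replaces it by making and keeping glycerol, and the annular furrow collagens of the cuticle take part in sensing the stress. Larvae that hatch without bacteria wait in L1 arrest, live on stored fat and carbohydrate, and resume growth when food arrives. Insulin-like signalling through the transcription factor DAF-16 is tied to both kinds of arrest in this animal.

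The unit CPM stands for reads of a gene in 1000000 reads of the scaled library, and it serves to compare 1 gene between libraries, not levels between genes. Triples of values are in the order of libraries A, B and C, and values of fed high-salt larvae come first. Changes are log2 fold changes of fed high-salt over unfed low-salt larvae, written with their standard error (SE). A gene passed the test, or was called, at an adjusted p under 0.05 in edgeR's quasi-likelihood test with Benjamini-Hochberg adjustment over all 18028 genes tested, and "higher" or "lower" without further words refers to genes that passed. Reads on genes numbered 14355870 to 20659851 in the 6 libraries compared. Reads on ribosomal RNA genes made up 9.13%, 39.9% and 81.8% of them in the fed high-salt libraries, and the unfed low-salt libraries had 6.61%, 1.32% and 12.4%. The 95% Wilson intervals of these shares were at most 0.0588 percentage points wide, for counting error only. The non-ribosomal reads of fed high-salt C numbered 3167905, the fewest of all libraries. Correlations of log CPM, taken across genes, placed unfed low-salt C nearer to the fed low-salt libraries (0.960 to 0.967) than to unfed low-salt A and B (0.944 and 0.945), which correlated with each other at 0.945.

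Between fed high-salt and unfed low-salt larvae 3885 genes passed the test, or 21.5% of those tested. Of these, 1269 were higher in fed high-salt larvae (7.04% of all genes) and 2616 were lower (14.5%). A change of over 2-fold went with the call in 3266 genes (18.1%), 982 higher (5.45%) and 2284 lower (12.7%). Over all genes tested, the median of the log2 fold change was -0.08, and it was 0.12 with upper-quartile scaling. The 3 fed high-salt libraries all lay above the 3 unfed low-salt libraries in 16.7% of genes and all below them in 23.3%, together 40.0%. Leaving out fed high-salt B gave 2497 calls, and leaving out fed high-salt C together with unfed low-salt B gave 2071. Higher genes numbered 649, 797 and 713 without fed high-salt B, fed high-salt C and unfed low-salt B in turn.

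Transcript length moved with this comparison. Among protein-coding genes with up to 500 nt of exon, 27.9% were lower and 6.23% higher, with a median log2 fold change of -0.70 over 1075 genes. Above 4000 nt, 6.07% were lower and 16.6% higher, with a median of 0.39 over 692 genes. Relative to the mean of all 12 libraries, short genes were lowest in fed high-salt C and highest in unfed low-salt B, by medians of -0.61 and 0.54 on the log2(CPM + 1) scale. Removing the length trend from each library gave 4136 calls, 1893 higher and 2243 lower, and kept 83.8% of the 3885 called genes. The part of length in the results below was not tested further. Counts with the length trend removed, and counts without these 2 libraries, are given beside groups of genes that they moved. A gene that did not pass was not shown to be unchanged. Counts of higher and lower genes in the lists below are to be read beside the shares of all genes, 7.04% higher and 14.5% lower.

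**Figure D1:**
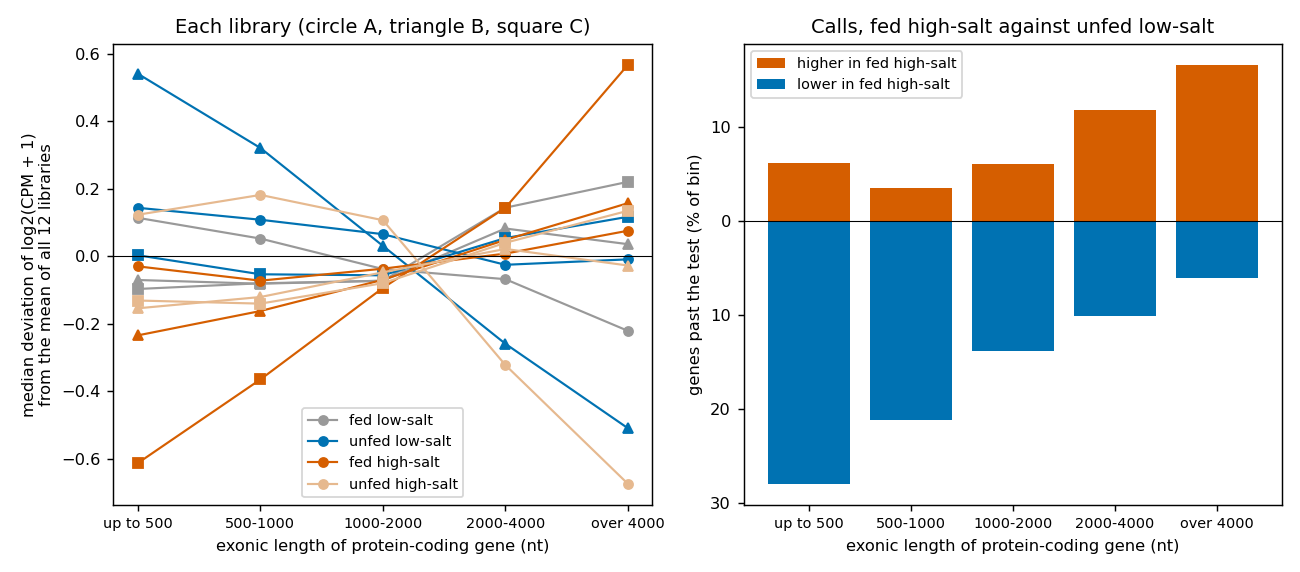
Left, the median deviation of log2(CPM + 1) from the mean of all 12 libraries (y axis) in bins of exonic length in nt (x axis), 1 line per library. Right, the percentage of genes in each length bin that were higher (up) or lower (down) in fed high-salt than in unfed low-salt larvae. Fed high-salt C and unfed low-salt B run in opposite directions, and lower calls go from 27.9% of the shortest genes to 6.07% of the longest.

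The other 6 libraries give the same change in salt with the opposite change in food, since unfed high-salt larvae are there set against fed low-salt larvae, and no library is in both contrasts. Both contrasts still come from 1 model of all 12 libraries, which share 1 estimate of the spread. In that second contrast 7223 genes passed (40.1%), 20.2% of all genes being higher and 19.8% lower. Of the 1269 genes higher in fed high-salt than in unfed low-salt larvae, 861 (67.9%) were also higher in the second contrast and 13 (1.02%) were lower. Of the 2616 lower genes, 1933 (73.9%) were also lower and 32 (1.22%) were higher. No call was made in the second contrast for 395 and 651 genes. The 861 genes are 23.6% of the genes higher in the second contrast, and the 1933 are 54.1% of those lower. The 861 became 464, 571 and 554 without fed high-salt B, fed high-salt C and unfed low-salt B, and 545 to 553 without any 1 fed low-salt library. These are counts of calls, and a gene without a call in the second contrast was not shown to differ between the contrasts.

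**Figure D2:**
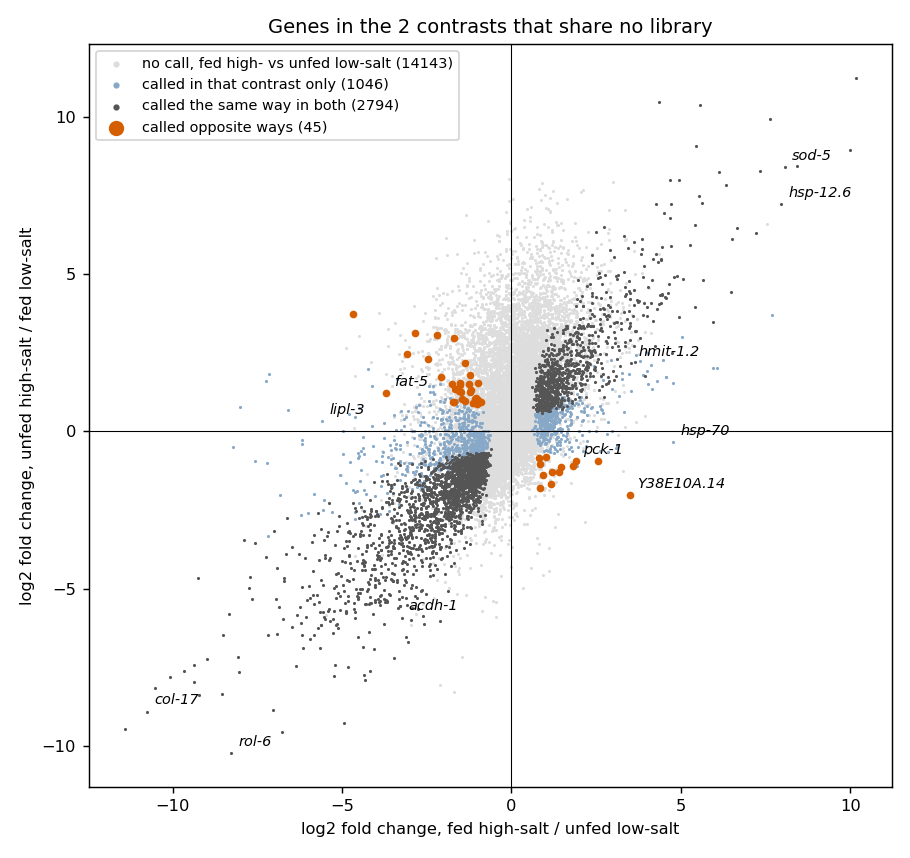
Each point is 1 of 18028 genes, with its log2 fold change between fed high-salt and unfed low-salt larvae on the x axis and between unfed high-salt and fed low-salt larvae on the y axis. Dark grey points were called the same way in both contrasts (861 higher and 1933 lower), orange points were called opposite ways (13 and 32), and named genes are labelled.

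Genes of stress defence were among the 8 with the highest log2 fold changes in fed high-salt larvae. The gene sod-5 (ZK430.3), for a superoxide dismutase that removes superoxide in the cytosol, stood at 772, 764 and 209 CPM in fed high-salt larvae and at 3.89, 2.14 and 0.443 CPM in unfed low-salt larvae. Every fed high-salt library lay far above every unfed low-salt library. The change was 8.06 ± 1.06 (SE) on the log2 scale (adjusted p = 0.000164). The small heat shock gene hsp-12.6 (F38E11.2), a DAF-16 target, had 279, 361 and 66.4 CPM against 0.898, 1.27 and 0.609 CPM, a log2 fold change of 7.97 ± 0.95. For hsp-16.21 (F08H9.4), of the hsp-16 family of small chaperones, the values were 880, 952 and 205 CPM against 6.39, 5.12 and 0.997 CPM, a log2 fold change of 7.34 ± 1.03. In all 3 of these genes library C was the lowest of its group in each of the 4 groups. The highest log2 fold change among the named genes, 10.17 ± 0.68, was that of D1086.9, which had 832, 1328 and 460 CPM against 0.798, 0.787 and 0.665 CPM. No role is given for it in the tables used here. Other genes among the 8 highest were clx-1 (C50F7.2) at 9.99 ± 1.32, C37A5.5 at 8.43 ± 0.91, C37A5.6 at 7.64 ± 0.90 and the collagen gene col-50 (T28F2.6) at 6.52 ± 0.67. All 8 were also higher in unfed high-salt than in fed low-salt larvae. In bulk libraries of whole larvae, more or fewer cells of a type and more or less RNA per cell cannot be told apart.

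Antioxidant genes did not move one way. Of 17 tested, 3 were higher (17.65%, against 7.04% of all genes) and 7 were lower (41.2%, against 14.5%). The mitochondrial superoxide dismutase gene sod-3 (C08A9.1), another DAF-16 target, had 54.8, 76.7 and 24.2 CPM in fed high-salt larvae against 4.94, 2.84 and 0.775 CPM, with no overlap and a log2 fold change of 4.18 ± 0.59. The methionine sulfoxide reductase gene msra-1 (F43E2.5), whose protein repairs oxidised methionine, went the other way, with 26, 18.9 and 11.8 CPM against 114, 206 and 334 CPM and a log2 fold change of -3.51 ± 0.40. The peroxisomal catalase gene ctl-2 (Y54G11A.5) was lower as well, at -1.83 ± 0.26. Of 16 genes listed as raised by DAF-16, 3 were higher (18.75%) and 5 were lower (31.25%). The lower ones included the lysozyme gene lys-7 (C02A12.4) at -5.84 ± 0.64 and the metallothionein gene mtl-2 (T08G5.10) at -2.85 ± 0.38. The transcript of daf-16 (R13H8.1) itself did not pass, at 0.45 ± 0.26 (adjusted p = 0.244) and overlapping libraries.

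Glycerol synthesis and solute uptake showed smaller and mixed changes. Of 14 osmolyte genes tested, 4 were higher (28.6%, against 7.04% of all genes) and 2 were lower (14.3%, against 14.5%). The median log2 fold change was 0.54. The glycerol-3-phosphate dehydrogenase gene gpdh-1 (F47G4.3), the inducible enzyme of glycerol synthesis, had 37, 65.8 and 26.6 CPM in fed high-salt larvae and 10.53, 9.75 and 10.52 CPM in unfed low-salt larvae. The groups did not overlap, and the change was 2.08 ± 0.35 (adjusted p = 0.00058). The second enzyme of that kind, gpdh-2 (K11H3.1), was lower, with 80.6, 73.8 and 58.7 CPM against 139, 172 and 220 CPM and a log2 fold change of -1.31 ± 0.26. The inositol transporter gene hmit-1.2 (Y51A2D.5) had 55.9, 64.5 and 66.4 CPM against 5.74, 5.25 and 5.04 CPM, a log2 fold change of 3.54 ± 0.31. Its neighbour in name hmit-1.1 (Y51A2D.4) did not pass, at 0.79 ± 0.32 (adjusted p = 0.098), although its libraries did not overlap. The trehalase gene tre-2 (T05A12.2), for an enzyme that splits the sugar trehalose, was higher by 1.49 ± 0.34. With DESeq2 7 of the 14 osmolyte genes were higher. Without fed high-salt C and unfed low-salt B 2 were, and tre-2 was no longer among the calls.

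Of 12 aquaporin genes, for water channels, 4 were lower (33.3%, against 14.5% of all genes) and 1 was higher (8.33%, against 7.04%). The gene aqp-8 (K02G10.7) had 17.85, 10.4 and 12.59 CPM in fed high-salt larvae against 28, 35.5 and 37.2 CPM, a log2 fold change of -1.29 ± 0.28. The higher one, aqp-6 (C32C4.2), had 15.8, 17.15 and 8.33 CPM against 3.79, 5.82 and 4.15 CPM, a log2 fold change of 1.598 ± 0.35. Without fed high-salt C and unfed low-salt B, 2 of the 12 were lower and aqp-8 did not pass. Of 32 ion transport and cell volume genes 5 were higher (15.6%) and 1 was lower (3.1%). The higher ones included the P-type ATPase genes catp-3, catp-6 and catp-8 at 2.39 ± 0.71, 1.31 ± 0.36 and 1.34 ± 0.32. Genes of this list are long, with a median of 3116 nt of exon, and none of the 32 passed without fed high-salt C and unfed low-salt B. Leaving out any 1 of the 6 libraries compared left 1 to 3 higher.

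**Figure D3:**
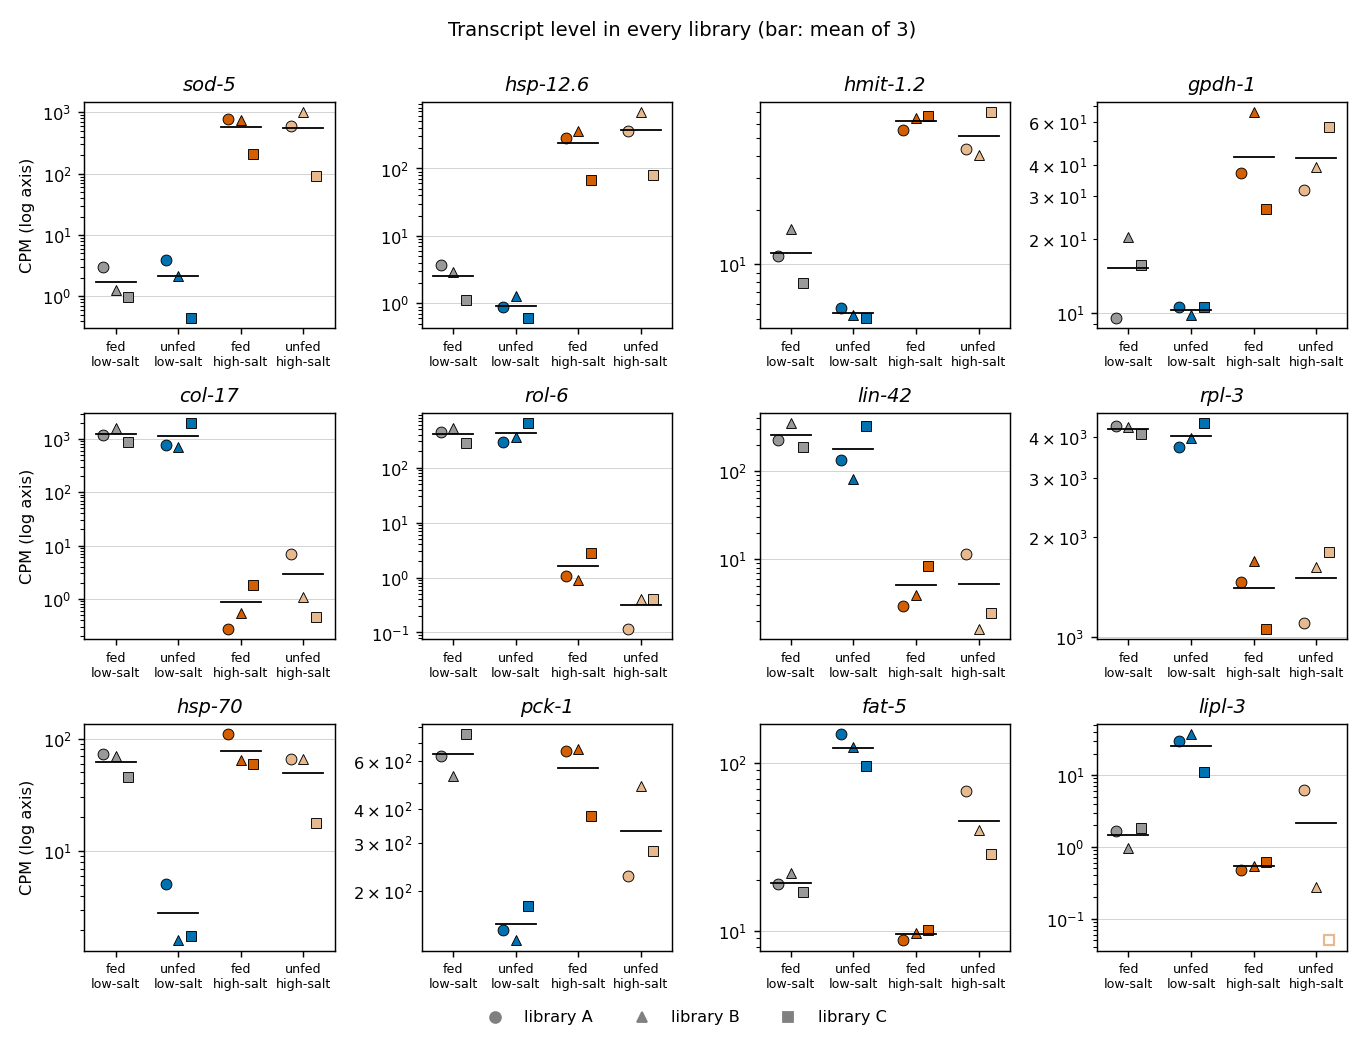
CPM of 12 genes in each of the 12 libraries on log axes, with circles, triangles and squares for libraries A, B and C and a bar at the mean of each group of 3; the open square, drawn at 0.05 CPM, marks 0 reads. In the top 2 rows both high-salt groups lie together and apart from both low-salt groups, while in the bottom row unfed low-salt larvae lie apart from fed low-salt larvae.

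Epidermal antimicrobial peptides, secreted after wounding, fungal infection and osmotic stress, split into higher and lower members. Of 18 tested, 7 were higher and 2 were lower. The peptide gene cnc-11 (R09B5.13) had 139, 142 and 29.2 CPM in fed high-salt larvae against 8.03, 4.07 and 1.496 CPM, a log2 fold change of 4.51 ± 0.84. For nlp-29 (B0213.4) the values were 368, 255 and 51 CPM against 57.6, 66.5 and 34.95 CPM. Fed high-salt C lay inside the range of the unfed low-salt libraries, the change was 2.08 ± 0.55 (adjusted p = 0.0137), and the call was lost without fed high-salt A. In contrast cnc-3 (R09B5.8) was at -3.215 ± 0.42. Without fed high-salt A the list had 3 higher and 5 lower genes, and without fed high-salt B 4 higher and 1 lower.

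Cuticle genes made up most of the 8 lowest log2 fold changes, and in those the unfed low-salt larvae stood near the fed low-salt larvae. The cuticle collagen gene col-17 (F11G11.10) had 0.269, 0.545 and 1.83 CPM in fed high-salt larvae and 761, 718 and 1979 CPM in unfed low-salt larvae. The groups did not overlap, and the change was -10.76 ± 1.11 (adjusted p = 2.92e-05). The fed low-salt libraries had 1213, 1614 and 897 CPM and the unfed high-salt libraries 7.02, 1.1 and 0.462 CPM. The collagen gene rol-6 (T01B7.7), whose dominant mutations make worms roll, had 1.075, 0.909 and 2.84 CPM against 288, 365 and 642.5 CPM, a log2 fold change of -8.28 ± 0.55. The collagen genes dpy-5 (F27C1.8), rol-8 (ZK1290.3), sqt-1 (B0491.2), dpy-13 (F30B5.1), col-73 and col-90 were at -10.51 to -9.21 and belong with col-17 to the 8 lowest. The remaining gene of the 8, nspc-14 (F42F12.7), had no read in any high-salt library and a mean of 15.75 CPM in unfed low-salt larvae, so it was at least 210.1-fold lower if 3 reads over the fed high-salt group are taken as the limit. Of 162 collagen genes tested 78 were lower (48.1%) and 10 higher (6.17%), and the median log2 fold change was -1.35. The collagen reads summed to 3771, 2992 and 1759 CPM in fed high-salt larvae and 12330, 13100 and 25260 CPM in unfed low-salt larvae, and unfed low-salt C lay within the 22710 to 27650 CPM of the fed low-salt libraries.

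The furrow collagens that take part in the control of gpdh-1 were among the lower genes. Of 11 genes listed for the cuticle signal of osmotic stress, 9 were lower and none was higher, and the median log2 fold change was -4.07. The furrow collagen gene dpy-7 (F46C8.6) had 12.85, 1.39 and 5.89 CPM in fed high-salt larvae against 129, 203.0 and 266 CPM. The furrow collagen gene dpy-10 (T14B4.7) had 14.7, 5.575 and 3.25 CPM against 113, 159 and 265 CPM. Both were without overlap, at -4.87 ± 0.64 and -4.46 ± 0.57. The secreted regulator gene osm-11 (F11C7.5), mutants of which resist salt, had 105, 97.4 and 64.2 CPM against 1079, 1113 and 668 CPM, a log2 fold change of -3.42 ± 0.36. The 2 members that did not pass were osm-7 and ptr-23, at 0.17 ± 0.29 and 0.32 ± 0.24.

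Single genes of the molt and of developmental timing were lower in the same larvae, while most of the genes listed for either did not pass. The Period-related gene lin-42 (F47F6.1), whose transcript cycles with the molts, had 2.90, 3.94 and 8.33 CPM in fed high-salt larvae against 135, 81 and 325 CPM, a log2 fold change of -5.25 ± 0.79. The timing gene lin-29 (W03C9.4), for a zinc finger protein of the larva-to-adult switch, was at -3.835 ± 0.51, while 11 of the 15 heterochronic genes tested did not pass and lin-66 (B0513.1) was higher at 1.19 ± 0.35. The median of the heterochronic list was 0.011, and with the length trend removed 5 were lower and 2 higher. The molting genes mlt-8 (W08F4.6) and mlt-10 (C09E8.3) were at -4.53 ± 0.52 and -3.55 ± 0.49. The matrix gene noah-1 (C34G6.6) had 43.6, 13.6 and 36.96 CPM against 267, 327 and 534 CPM, a log2 fold change of -3.59 ± 0.46. Of 62 molting genes 16 were lower (25.8%, against 14.5% of all genes) and 3 higher (4.84%, against 7.04%). Without unfed low-salt C 10 of the 62 were lower. Of 75 genes related to hedgehog signalling 29 were lower (38.7%) and 8 higher (10.7%), among the lower wrt-10 (ZK1290.8) at -5.645 ± 0.56 and grl-7 (T02E9.2) at -5.61 ± 0.57. The count of higher genes in this list was 4 without unfed low-salt A or B, 5 or 6 without any other single library of those compared, and 3 without fed high-salt C and unfed low-salt B. Epidermis markers did not move as one, with 6 of 18 lower (33.3%), 1 higher (5.56%) and a median of 0.07. Their reads summed to 2633, 3093 and 4122 CPM in fed high-salt larvae and 2533, 1785 and 3191 CPM in unfed low-salt larvae, and no marker was at 0 reads in all 6 libraries.

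DNA replication genes were lower in fed high-salt larvae, 24 of 32 tested (75.0%) with none higher and a median of -1.54. The sliding clamp gene pcn-1 (W03D2.4), which holds polymerase on DNA, had 10.97, 5.27 and 6.9 CPM against 52.5, 59.6 and 77.55 CPM in unfed low-salt larvae. No library overlapped, and the change was -3.02 ± 0.30 (adjusted p = 9.77e-06). The helicase subunit genes mcm-2 (Y17G7B.5) and mcm-4 (Y39G10AR.14) were at -2.84 ± 0.32 and -2.51 ± 0.27. Fed low-salt larvae, with 69.35, 72.8 and 57.8 CPM of pcn-1, lay near the unfed low-salt larvae. Cell cycle genes were higher in 1 and lower in 7 of 23 (30.4%, against 14.5% of all genes). The lower ones included the kinase genes cdk-1 (T05G5.3) at -2.605 ± 0.26 and air-1 (K07C11.2) at -1.87 ± 0.33. With the length trend removed, 25 replication genes and 8 cell cycle genes were lower. The counts were 18 and 5 without unfed low-salt C, and 18 and 6 without fed high-salt C and unfed low-salt B.

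Ribosomal protein genes were lower in 75 of 76 tested, between -1.81 and -0.725 for all 76, with a median of -1.39. The gene rpl-3 (F13B10.2), for a protein of the large subunit, had 1458, 1685 and 1053 CPM in fed high-salt larvae against 3731, 3972 and 4393 CPM in unfed low-salt larvae. Fed low-salt larvae had 4079 to 4313 CPM, and the change between the groups compared was -1.53 ± 0.27 (adjusted p = 0.000723). Together the reads of these genes summed to 61670, 62740 and 32560 CPM against 112900, 161800 and 128700 CPM. They are short, with a median of 513.5 nt of exon. With the length trend removed 70 of 76 were lower with a median of -0.79, and without fed high-salt C and unfed low-salt B 38 were lower with a median of -0.96. Cytosolic translation factors and tRNA synthetases, with a median of 1780 nt, were lower in 10 of 71, which is 14.1% against 14.5% of all genes. Among them eef-1G (F17C11.9), a subunit of elongation factor 1, was at -1.49 ± 0.24. The count was 3 without fed high-salt C, 3 without unfed low-salt C and 4 without either of the other fed high-salt libraries. In nucleolar genes, which make and assemble ribosomes, 1 of 20 was higher and none was lower.

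Proteasome subunit genes were lower in 27 of 33 and the median log2 fold change was -1.07. The core subunit gene pas-1 (C15H11.7) had 15.6, 17.45 and 13.4 CPM in fed high-salt larvae against 39.0, 49.6 and 62.7 CPM, a log2 fold change of -1.69 ± 0.24. The count was 26 with the length trend removed, 14 without fed high-salt C, 13 without unfed low-salt C and 10 without fed high-salt C and unfed low-salt B. Nuclear genes of the respiratory chain were lower in 28 of 51 with none higher, and the median was -0.89. Their count was less steady, with 11 lower without fed high-salt C, 11 without unfed low-salt C, 15 without unfed low-salt B, 18 without fed high-salt B and 6 without fed high-salt C and unfed low-salt B. Genes of the mitochondrial ribosome were lower in 7 of 68, below the 14.5% of all genes, and in 2 with the length trend removed. Leaving out unfed low-salt C gave a count of 1, leaving out fed high-salt C gave 2, leaving out fed high-salt B or unfed low-salt B gave 3, and leaving out unfed low-salt A gave 12.

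**Figure D4:**
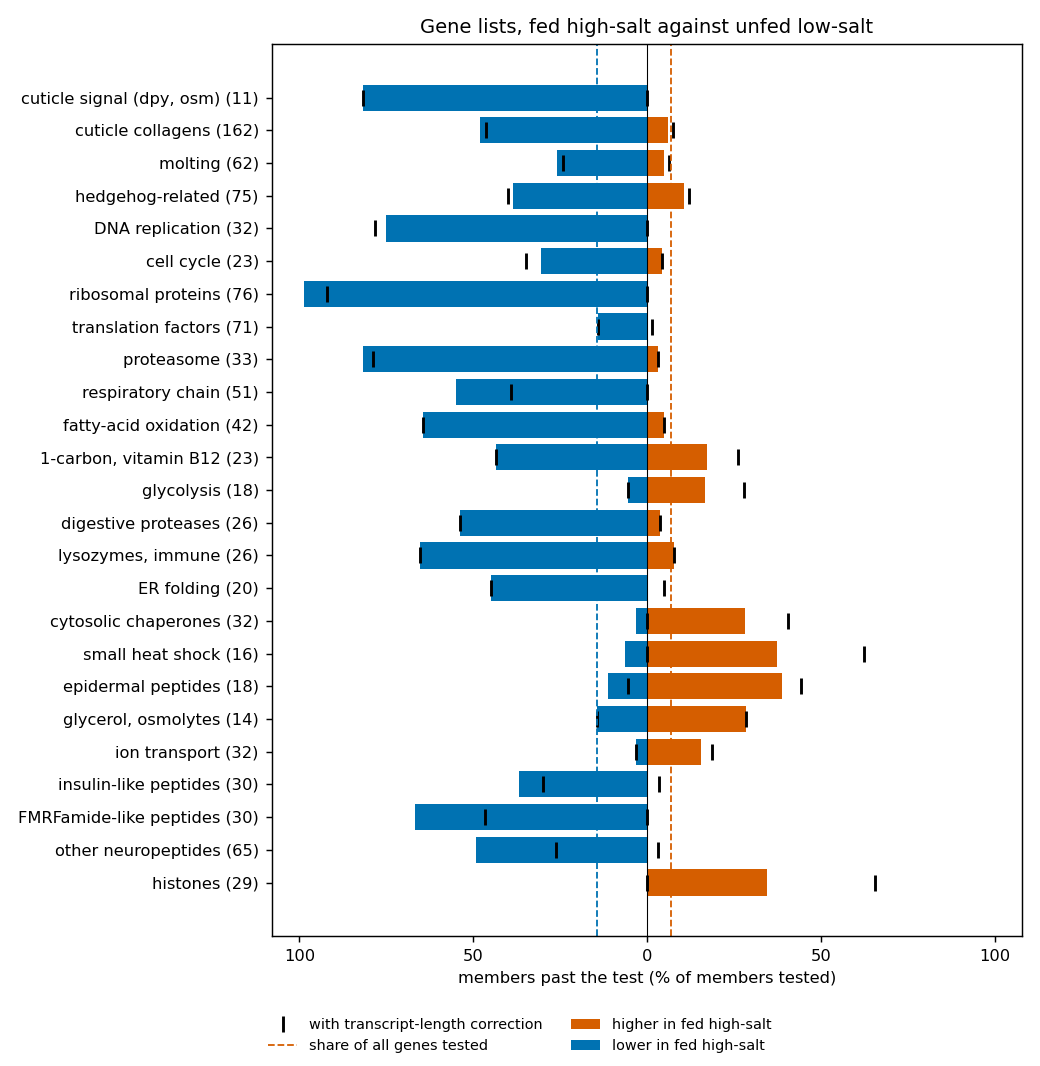
Percentage of the tested members of 25 gene lists that were higher (right) or lower (left) in fed high-salt than in unfed low-salt larvae, with the number tested in brackets. Black ticks give the percentage with the length trend removed, and dashed lines give the percentage over all genes, 7.04% higher and 14.5% lower. Ribosomal proteins have the longest bar to the left, and the ticks lie far from the bars in small heat shock proteins, other neuropeptides and histones.

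Fatty-acid oxidation genes were lower in 27 of 42, with 2 higher and a median of -1.7. The enoyl-CoA hydratase gene ech-4 (R06F6.9) had 15.2, 16.3 and 14.01 CPM in fed high-salt larvae against 84.0, 83.4 and 109 CPM, a log2 fold change of -2.60 ± 0.23. Peroxisomal genes of the same pathway, dhs-28 (M03A8.1), maoc-1 (E04F6.3) and daf-22 (Y57A10C.6), whose enzymes also shorten the fatty acid of ascaroside pheromones, were at -2.63 ± 0.28, -2.48 ± 0.27 and -2.17 ± 0.26. The carnitine palmitoyltransferase gene cpt-5 (F09F3.9) was at -4.002 ± 0.43. The fasting-responsive acyl-CoA synthetase gene acs-2 (F28F8.2) did not pass, with 39.7, 64.5 and 35.9 CPM against 29.9, 19.98 and 124.5 CPM, and its libraries overlapped. The higher genes were ech-7 (Y105E8A.4), for an enoyl-CoA hydratase, at 1.45 ± 0.30 and hacd-1 (R09B5.6), for a hydroxyacyl-CoA dehydrogenase, at 3.11 ± 0.36. The latter was chosen after its values were seen. The list's count of lower genes was 24 to 29 when any 1 library was left out and 27 with the length trend removed.

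Fat synthesis and fat release separated the groups by single genes. The desaturase gene fat-5 (W06D12.3), which makes palmitoleic acid, had 8.76, 9.635 and 10.15 CPM in fed high-salt larvae against 148, 124 and 95.4 CPM in unfed low-salt larvae. No library overlapped, and the change was -3.69 ± 0.33 (adjusted p = 4.11e-06). Fed low-salt larvae had 16.98 to 22 CPM and unfed high-salt larvae 28.6 to 67.6 CPM, so that in both salts the unfed libraries lay above the fed ones. The gene lipl-3 (R11G11.14), for a lysosomal lipase induced on fasting, had 0.484, 0.545 and 0.609 CPM against 29.4, 36.95 and 10.9 CPM, a log2 fold change of -5.59 ± 1.21. The desaturase genes fat-1 (Y67H2A.8), fat-2 (W02A2.1) and fat-3 (W08D2.4) of polyunsaturated fat synthesis were at -3.33 ± 0.35, -2.61 ± 0.38 and -1.90 ± 0.36. Of 10 lipase genes 4 were lower and none was higher. Of 21 fat synthesis genes 8 were lower and 4 higher, and without fed high-salt C and unfed low-salt B 5 were lower and 1 higher. Without any 1 of the libraries compared other than unfed low-salt C, 1 or 2 were higher.

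Vitamin B12 and 1-carbon metabolism was lower in 10 genes of 23 and higher in 4. The acyl-CoA dehydrogenase gene acdh-1 (C55B7.4), which is kept low by vitamin B12 in this worm, had 68.9, 47.2 and 33.9 CPM in fed high-salt larvae against 213, 296 and 914 CPM, a log2 fold change of -3.24 ± 0.48. The methionine synthase gene metr-1 (R03D7.1), a vitamin B12 enzyme, had 43.55, 60.8 and 96.9 CPM against 299, 285 and 678 CPM, a log2 fold change of -2.655 ± 0.43. Unfed low-salt C was the highest of the 6 libraries compared in both genes, and the fed low-salt libraries lay above it. The methylmalonate semialdehyde dehydrogenase gene alh-8 (F13D12.4), of valine breakdown, went the other way, with 3894, 4884 and 3452 CPM against 709, 562 and 761 CPM and a log2 fold change of 2.59 ± 0.29. The count of higher genes was 1 without fed high-salt B and 2 without fed high-salt A, unfed low-salt A or unfed low-salt B.

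In sugar metabolism single steps set unfed low-salt larvae below the other groups. The gluconeogenic enzyme gene pck-1 (W05G11.6) had 654, 665 and 378 CPM in fed high-salt larvae against 143, 131.5 and 176 CPM in unfed low-salt larvae, a change of 1.91 ± 0.33 (adjusted p = 0.000636). Fed low-salt larvae had 526.5 to 752 CPM and unfed high-salt larvae 226 to 486 CPM. The glyceraldehyde-3-phosphate dehydrogenase gene gpd-3 (K10B3.7) had 1011, 1318 and 737 CPM against 360, 390 and 472 CPM, and the aldolase gene aldo-2 (F01F1.12) had 973, 1209 and 655 CPM against 381, 406.5 and 480.3 CPM. They were at 1.33 ± 0.31 and 1.16 ± 0.30, and both calls were lost without fed high-salt B, that of aldo-2 also without unfed low-salt A or B. Of 18 glycolysis genes 3 were higher and 1, the pyruvate kinase gene pyk-2 (ZK593.1) at -1.56 ± 0.30, was lower. Upper-quartile scaling gave 8 higher glycolysis genes and the length correction 5. In gluconeogenesis and the glyoxylate cycle 4 of 11 were lower, among them icl-1 (C05E4.9), the bifunctional glyoxylate cycle enzyme, with 485, 545 and 418 CPM against 1446, 796 and 3222 CPM. The count of lower genes was 2 without fed high-salt B, without fed high-salt C or without unfed low-salt C.

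Genes of digestion and defence of the gut were more often lower than higher in fed high-salt larvae, which had food, against unfed low-salt larvae. Of 26 digestive protease genes 14 were lower and 1 higher. The cathepsin B-like gene cpr-4 (F44C4.3) had 33.2, 26.7 and 28.6 CPM against 775, 750 and 921 CPM, a log2 fold change of -4.79 ± 0.47, and cpr-5 (W07B8.5) was at -5.41 ± 0.60. The aspartyl protease genes asp-13 (F28A12.4) and asp-2 (T18H9.2) were at -3.71 ± 0.34 and -2.97 ± 0.36. Of 26 lysozyme and immune genes 17 were lower (65.4%, against 14.5% of all genes) and 2 higher, with log2 fold changes from -6.18 to 5.455 over the list. The lower ones included lys-4 (F58B3.1) at -4.26 ± 0.47. Of 169 C-type lectin genes 40 were lower (23.7%) and 4 higher (2.37%, against 7.04% of all genes). Without unfed low-salt C 29 lectin genes were lower. The lectin gene clec-47 (T09F5.9) had 0.0538, 0.364 and 0.203 CPM against 50.4, 90.6 and 85.03 CPM. Intestine markers were lower in 7 of 19 with 1 higher, and their reads summed to 2684, 2809 and 2485 CPM in fed high-salt larvae against 6375, 4584 and 9076 CPM. No intestine marker was at 0 reads in all 6 libraries, and the part of intestinal RNA in these lists was not tested. In the detoxification families most genes did not pass, and lower calls outnumbered higher ones. Of 74 cytochrome P450 genes 18 were lower (24.3%, against 14.5% of all genes) and 3 higher, of 67 glucuronosyltransferase genes 22 (32.8%) and 5, and of 49 glutathione S-transferase genes 15 (30.6%) and 4. Without fed high-salt C and unfed low-salt B the counts of lower genes were 8, 12 and 9, and with the length trend removed 17, 18 and 9, the last beside 7 higher glutathione S-transferase genes. Cytochrome P450 genes came to 10, 11 and 12 without fed high-salt B, unfed low-salt B and unfed low-salt C, and glutathione S-transferase genes to 9 without unfed low-salt B and 10 without unfed low-salt A or fed high-salt B or C.

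Heat-inducible cytosolic chaperones were higher in fed high-salt larvae, while folding factors of the endoplasmic reticulum were lower. The gene hsp-70 (C12C8.1), a heat-inducible member of the HSP70 family, had 109, 64.9 and 59.7 CPM in fed high-salt larvae against 5.14, 1.62 and 1.77 CPM in unfed low-salt larvae. The change was 4.78 ± 0.56 (adjusted p = 3.98e-05), and no library overlapped. Fed low-salt larvae had 72.3, 69.8 and 45.2 CPM, so the unfed low-salt libraries lay apart from both. The gene hsp-110 (C30C11.4), for a partner of HSP70, had 900.4, 632 and 576.5 CPM against 133, 109 and 129 CPM, a log2 fold change of 2.50 ± 0.37. The HSP70 genes F44E5.4 and F44E5.5 were at 3.09 ± 0.52 and 3.10 ± 0.53, and because they are near-identical copies their reads cannot be assigned with certainty. For F44E5.4 fed high-salt larvae had 799, 332 and 373 CPM, unfed low-salt larvae 85.9, 63.75 and 27.6 CPM and fed low-salt larvae 1071, 1250 and 770 CPM. Of 32 cytosolic chaperone genes 9 were higher and 1, the prefoldin gene pfd-6, was lower. The higher count was 4 without fed high-salt A, fed high-salt B or unfed low-salt B and 5 without unfed low-salt A, against 15 with DESeq2 and 16 with upper-quartile scaling. In the second contrast 1 of the 32 was higher and 9 were lower, where 20.2% of all genes were higher and 19.8% lower. Of 16 small heat shock genes 6 were higher (37.5%, against 7.04% of all genes) and 1 was lower. With the length trend removed 10 were higher, and 4 were without fed high-salt A, fed high-salt C or any 1 unfed low-salt library. The near-identical genes hsp-16.1, hsp-16.11, hsp-16.48 and hsp-16.49 lay between 2.103 and 2.23, hsp-16.1 and hsp-16.48 passed, and their reads are likewise uncertain.

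In the endoplasmic reticulum list 9 of 20 genes were lower and none was higher. The protein disulfide isomerase gene pdi-2 (C07A12.4), whose protein also serves collagen hydroxylation, had 249, 194 and 193 CPM in fed high-salt larvae against 741, 762 and 1773 CPM, a log2 fold change of -2.36 ± 0.33. The calreticulin gene crt-1 (Y38A10A.5), for a calcium-binding chaperone, had 502, 509.8 and 225 CPM against 1372, 1417 and 2329 CPM, a log2 fold change of -2.05 ± 0.35. Unfed low-salt C was the highest of the 6 libraries compared in both, below all fed low-salt libraries, and without it 5 of the 20 were lower.

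Insulin-like peptide genes were lower in 11 of 30 tested (36.7%, against 14.5% of all genes) and higher in none, and the median log2 fold change was -1.1. They are short, with a median of 395 nt of exon, and of protein-coding genes with up to 500 nt 27.9% were lower. The gene daf-28 (Y116F11B.1), for an insulin that favours growth over dauer formation, had 4.14, 3.21 and 2.03 CPM in fed high-salt larvae against 50.7, 37.8 and 54.1 CPM in unfed low-salt larvae. Fed low-salt larvae had 26.5 to 57.3 CPM and unfed high-salt larvae 2.07 to 3.52 CPM, and the log2 fold change between the groups compared was -3.86 ± 0.37. The genes ins-5 (ZK84.3), ins-35 (K02E2.4) and ins-27 (ZC334.11) were at -4.18 ± 0.49, -4.02 ± 0.48 and -3.48 ± 0.42. With the length trend removed 9 of the 30 insulin-like peptide genes were lower and 1 higher, with a median of -0.36. The gene daf-7 (B0412.2), for a TGF-beta ligand that represses dauer formation, had 46.5, 51.45 and 40 CPM against 150.0, 147 and 137.5 CPM, a log2 fold change of -1.65 ± 0.26. Genes downstream in the insulin, TOR and AMPK pathways mostly did not pass, with 3 of 32 higher and 1 lower, although upper-quartile scaling gave 14 higher, DESeq2 8 and the length correction 5. Without fed high-salt B, fed high-salt C or unfed low-salt B 1 was higher.

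Neuropeptide genes were lower in fed high-salt than in unfed low-salt larvae. Of 30 FMRFamide-like peptide (flp) genes 20 were lower and none was higher, and all 30 log2 fold changes lay between -2.25 and -0.32. The gene flp-17 (C52D10.11) had 28.98, 28.7 and 20.5 CPM against 114, 167 and 92.2 CPM, a log2 fold change of -2.25 ± 0.29, and flp-14 (Y37D8A.15) had 59.7, 57.45 and 29.4 CPM against 175.5, 287 and 115 CPM, a log2 fold change of -1.97 ± 0.34. Summed over the list, flp reads came to 1450, 1374 and 782 CPM in fed high-salt larvae, 2733, 4439 and 1868 CPM in unfed low-salt larvae and 908 to 1233 CPM in fed low-salt larvae. In the second contrast 6 of the 30 flp genes were higher and none was lower, where 20.2% of all genes were higher and 19.8% lower. Of 65 other neuropeptide genes 32 were lower and none higher, among them nlp-3 (F48C11.3) at -2.075 ± 0.35. Both lists hold short genes, with medians of 633 and 532.5 nt. The counts were 14 flp and 17 other genes with the length trend removed, 11 and 19 without unfed low-salt B, 12 and 22 without fed high-salt C, and 5 and 7 without fed high-salt C and unfed low-salt B. Of 26 neuron markers 3 were higher (1 without fed high-salt B or unfed low-salt A, 6 with the length trend removed) and 1 was lower. Their reads summed to 3134, 3574 and 3247 CPM in fed high-salt larvae against 4087, 4017 and 3263 CPM. These markers are longer than the peptide genes, with a median of 1806 nt, and the part of length in the difference between the lists was not tested. The lower marker was the odorant receptor gene odr-10 (C53B7.5), with 4.355, 5.7 and 6.7 CPM against 22.6, 38.6 and 7.26 CPM.

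**Figure D5:**
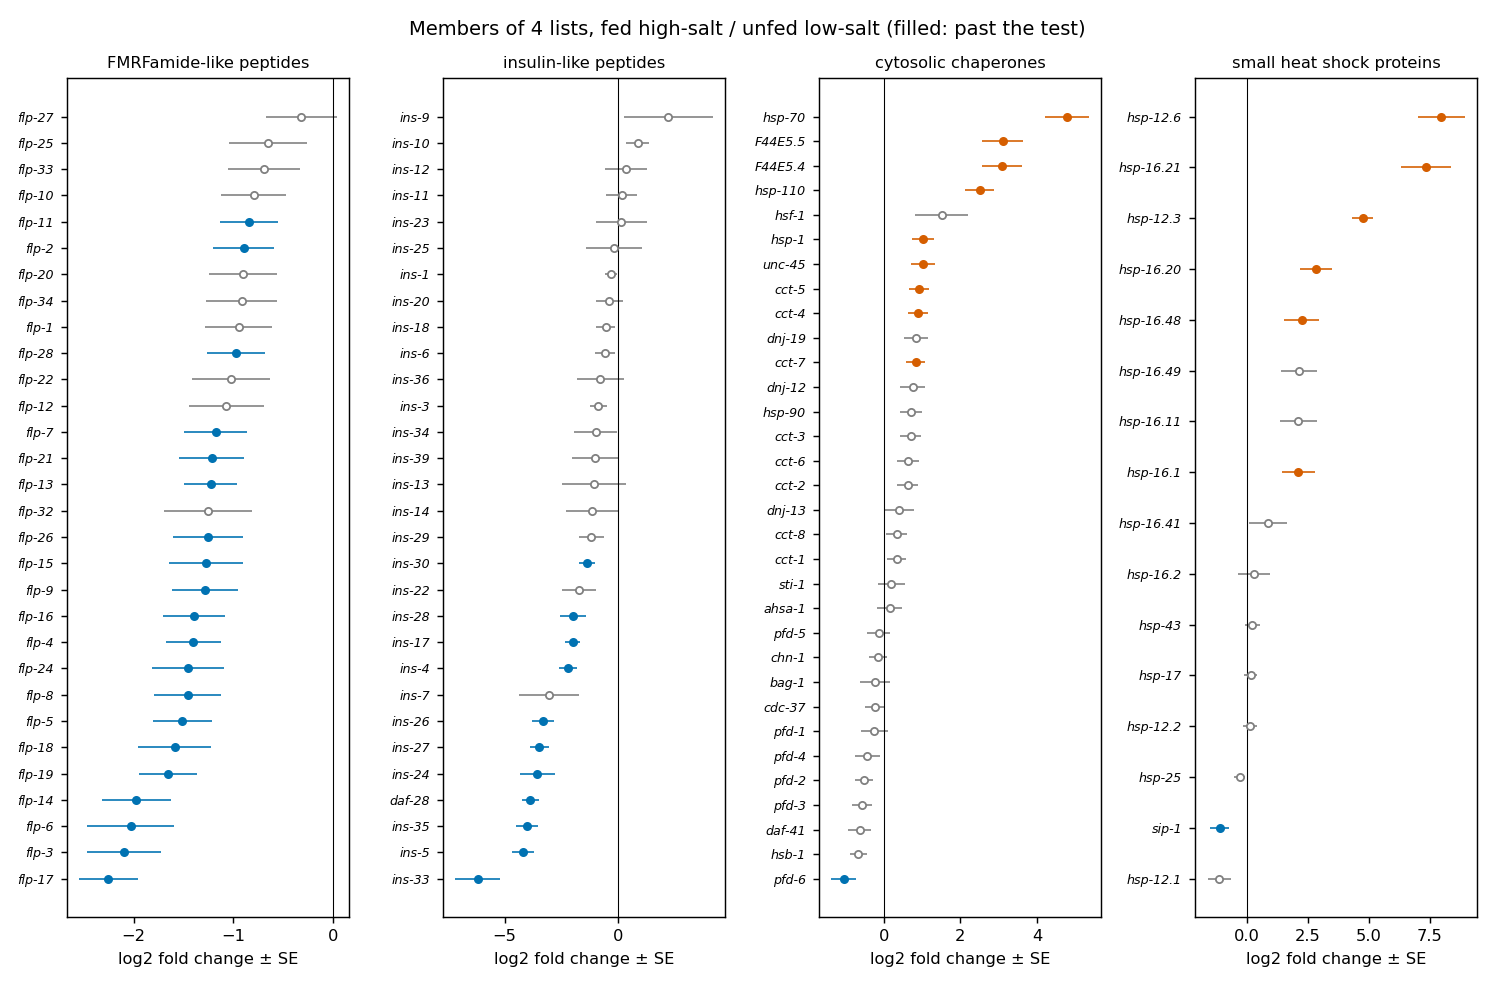
Log2 fold change ± SE between fed high-salt and unfed low-salt larvae for every tested member of 4 lists, with filled points for genes past the test (orange higher, blue lower). All flp genes lie between -2.25 and -0.32, while the chaperone lists run from -1.04 to 4.78 and from -1.14 to 7.97.

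The 45 genes called opposite ways in the contrasts that share no library are few against 2794 called the same way, and counts of such genes without single libraries ran from 5 to 28 for the 13 and from 11 to 37 for the 32. Among the 13 that were higher in fed high-salt than in unfed low-salt larvae and lower in unfed high-salt than in fed low-salt larvae were pck-1, ech-7, Y38E10A.14 (3.5 ± 0.56 and -2.02) and the Argonaute gene ppw-2 (Y110A7A.18; 1.21 ± 0.34 and -1.28). The gene Y38E10A.14 had 70.4, 26.2 and 41.6 CPM in fed high-salt larvae, 4.39, 4.11 and 3.71 CPM in unfed low-salt larvae, 10.2 to 64.4 CPM in fed low-salt larvae and 6.05 to 11.7 CPM in unfed high-salt larvae. The call of ppw-2 was lost without fed high-salt C, unfed low-salt A or unfed low-salt B, whichever was left out. Among the 32 that went in the opposite direction were fat-5, W03F9.4 and the neuropeptide genes nlp-71 (Y73B6BL.35), nlp-51 (T24F1.5) and flp-21 (C26F1.10). The gene nlp-71 had 21.7, 21.6 and 11.98 CPM in fed high-salt larvae, 48.35, 104.4 and 35.2 CPM in unfed low-salt larvae, 6.04 to 11.2 CPM in fed low-salt larvae and 21.6 to 27.2 CPM in unfed high-salt larvae. Without fed high-salt C and unfed low-salt B the calls of nlp-71, nlp-51 and flp-21 were lost, and that of flp-21 also without either of these libraries alone.

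Muscle and pharynx markers included several large motor genes that were higher in fed high-salt larvae. The body wall myosin gene myo-3 (K12F2.1) had 1870, 2096 and 2091 CPM against 477, 286 and 549 CPM, a log2 fold change of 2.21 ± 0.34. The myosin gene myo-5 (F58G4.1), listed with the pharynx, had 1950, 2689 and 2450 CPM against 366, 249.7 and 255.5 CPM, a log2 fold change of 3.025 ± 0.40. Muscle markers were higher in 6 of 18 and lower in 1. Pharynx markers were higher in 6 and lower in 6 of 20, the lower ones including the secreted gland gene phat-7 (C49G7.3) at -3.89 ± 0.40 and the higher ones the FoxA gene pha-4 (F38A6.1), a regulator of pharynx identity, at 1.88 ± 0.29. Without fed high-salt C and unfed low-salt B, 2 muscle and 2 pharynx markers were higher, and 3 muscle markers were without fed high-salt B or unfed low-salt B alone. Germline markers, with 1 of 28 higher and 1 lower, and embryo markers, with 1 of 25 higher and 2 lower, lay below the share of calls over all genes. The germ granule gene pgl-1 (ZK381.4) did not pass, with 10.4, 14.5 and 10.4 CPM against 18.8, 12.4 and 29.4 CPM and overlapping libraries.

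Histone genes, whose replication-dependent copies make mRNA without a poly(A) tail, were higher in 10 of 29 tested and lower in none. Over the 29 members, the median of the mean CPM was 2.54 in fed high-salt and 0.659 in unfed low-salt larvae, so most had few reads. The linker histone gene his-24 (M163.3), not typical of the list in its level, had 927, 1002 and 824 CPM in fed high-salt larvae against 136, 138 and 293 CPM. Its log2 fold change was 2.28 ± 0.33. Most histone genes have near-identical copies, so reads on single genes are uncertain. The libraries were made from poly(A) RNA, and the ribosomal RNA shares given above were higher in fed high-salt B and C than in any unfed low-salt library. Reads of the 29 histone genes summed to 2249, 2265 and 1642 CPM in fed high-salt larvae and 1015, 1403 and 1226 CPM in unfed low-salt larvae. With the length trend removed 19 histone genes were higher, and 6 were without fed high-salt C and unfed low-salt B or without fed high-salt A, and 5 without fed high-salt B. The part of ribosomal RNA content in the histone counts was not tested beyond leaving ribosomal RNA genes out of the fit, with which 11 were higher.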

How the data were processed

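Libraries were made from poly(A) RNA without strand information, per the labels' protocols, so a gene cannot be separated from an antisense or overlapping one. The authors aligned reads with Bowtie 1.1.2 and deposited raw counts per gene from HTSeq, according to the submitters' processing notes. Their settings and genome build are not given in the sources used here, so no coordinates are printed. None of the authors' deposited comparison tables holds this contrast, and those tables were not used.

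Symbols came from RefSeq (assembly WBcel235), which named 43592 of 44968 features, and exonic lengths from the Ensembl annotation of that assembly. The model was fitted with edgeR 4.0.16 (R 4.3.3). The function filterByExpr (minimum count 10, minimum total 15) left 18028 genes, libraries were scaled by TMM, and all 12 libraries entered 1 model with a coefficient per group and the robust quasi-likelihood F-test, two-sided. The SE is the log2 fold change divided by the square root of F. CPM were computed here. The fit was tested on simulated counts.

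The members, the 51 gene lists and the naming rule were chosen with earlier results of these data known. The rule named 232 genes: 18 focal genes, the 8 highest and 8 lowest called changes with a mean of at least 10 CPM in 1 group and no overlap, up to 4 members per list by p and up to 5 per class of calls in both contrasts. Named outside it, after their values were seen, were hacd-1, osm-7, ptr-23, pfd-6, hsp-16.1, hsp-16.11, hsp-16.48 and hsp-16.49. Alternatives were 26 other fits: the replicate block, DESeq2 1.42.0, edgeR's exact test, other scalings, filters and library sets, and each library left out. The transcript-length correction and the omission of fed high-salt C with unfed low-salt B were chosen after seeing the data.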

Additional observations from a re-analysis of the deposited data

How the results depend on the processing

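Of 220 named genes that were called, 182 kept their call under all 26 alternatives, and no named gene reversed its direction. Of 6029 recomputed changes, 202 lost a call and 25 gained one. DESeq2 gave 1999 higher genes and upper-quartile scaling 2226, against 1269. Genes higher in both contrasts, 861, became 1295 with DESeq2 and 1556 with upper-quartile scaling, 553 without the count filter and 1386 with the length correction. Genes higher and then lower, 13, became 24 with DESeq2 and 25 with the length correction. Without fed high-salt C and unfed low-salt B, 2071 genes passed, 604 higher and 1467 lower, 2052 of them over 2-fold. Of these calls 1763 were shared with the second contrast (2839 in the fit reported), 479 higher in both, 1268 lower in both and 7 lower and then higher. A test against a 2-fold change (edgeR's glmTreat) gave 1174 genes, against 3266 called and over 2-fold. The cause of these shifts was not tested.

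Leaving out 1 library at a time gave 2497 to 5201 calls, 649 to 1881 higher and 4599 to 7653 in the second contrast, with 464 to 1254 higher in both, 5 to 28 higher and then lower, and 11 to 37 lower and then higher. The 5201 calls came without unfed high-salt A, which is in neither group compared but enters the same model. In that library 38.6% of reads aligned, and its log CPM correlated at 0.8295 and 0.8099 with unfed high-salt B and C. Same-lettered libraries of the groups compared deviated with correlations of -0.0942, 0.0417 and -0.0534, and libraries of unlike letters with -0.152 to 0.202. With 3 libraries per group these values cannot decide whether libraries of 1 letter share a batch. The fit with the letter as a replicate block gave 4098 calls and kept 96.3% of the 3885. Fed high-salt C, with 3167905 non-ribosomal reads, limits what can be seen in genes of low count.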

Other observations

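Several groups of genes outside the main account were near the share of all genes or split. Of 243 nuclear hormone receptor genes, transcription factors often regulated by small lipids, 17 were higher and 19 lower. Higher genes numbered 30 with the length trend removed, 31 with DESeq2, 32 with upper-quartile scaling and 27 without unfed high-salt A. They numbered 10 without fed high-salt B, 11 without fed high-salt C or unfed low-salt B and 10 without both of the latter, and lower genes numbered 12 without fed high-salt B or unfed low-salt C. The receptor gene nhr-68 (H12C20.3), known for its place in propionate metabolism, had 11.1, 11.2 and 9.14 CPM in fed high-salt larvae against 54.2, 74.5 and 98.99 CPM in unfed low-salt larvae, with no overlap and a log2 fold change of -2.84 ± 0.28. Autophagy genes were higher in 3 and lower in 3 of 47, the higher ones including epg-2 (Y39G10AR.10) at 1.62 ± 0.25. Each count was 1 without fed high-salt A or B or unfed low-salt B, and with the length trend removed 6 were higher and 1 lower. Of 60 abu and pqn genes, many of them for pharyngeal cuticle proteins, 13 were lower and 7 higher, with pqn-62 (T03G11.1) at 2.63 ± 0.41 and abu-13 (F57B9.9) at -2.94 ± 0.40. Higher genes of this list numbered 11 with the length trend removed, 4 without fed high-salt C and 3 without unfed low-salt B, and 8 were lower without fed high-salt A. Of 15 dauer TGF-beta and steroid hormone genes 3 were lower and 2 higher, against 6 and 1 with the length trend removed. The count of higher genes was 0 or 1 without any 1 of the 6 libraries compared. Of 8 mitochondrially encoded features tested 2 were lower, and the call of one of them, MTCE.16 (-0.82 ± 0.28, adjusted p = 0.0476), was lost under 19 of 26 alternatives.

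Among the genes with the smallest p that were higher in both contrasts was mfsd-8.1 (ZK550.2), of a family of membrane transporters, with 94.1, 115 and 110.3 CPM in fed high-salt larvae against 7.78, 9.445 and 10.7 CPM in unfed low-salt larvae. No library overlapped, and the 3 libraries of unfed high-salt larvae had 86.1 to 112 CPM. The gene fipr-13 (F57A8.8), of a family of secreted peptides related to fungus-induced genes, was at 4.34 ± 0.41. The thaumatin-like gene thn-2 (F28D1.5) had 4.30, 4.97 and 2.23 CPM in fed high-salt larvae against 24.5, 38.35 and 65.25 CPM in unfed low-salt larvae, a log2 fold change of -3.42 ± 0.41, and 2.87 to 4.88 CPM in fed low-salt larvae.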
